A study of Rattus norvegicus with 75 samples.

Results

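The D cyclins, their kinases and the inhibitors that bind them were followed through 10 groups of kidney tubule segments from rats fed with or without lithium. They were taken as the control of entry into the cell cycle from G1. The list holds 9 symbols: Ccnd1, Ccnd2, Ccnd3, Cdk4, Cdk6, Cdkn1b, Cdkn1c, Cdkn2c and Cdkn2d. Of these, 8 had a row among the 32754 genes of the deposited table, and Cdkn2d was not analysed here. The genes were picked by symbol, with earlier results of these data known. In the table's Ensembl identifiers, Ccnd1 is ENSRNOG00000020918, Ccnd2 is ENSRNOG00000057710, Ccnd3 is ENSRNOG00000050258, Cdk4 is ENSRNOG00000025602, Cdk6 is ENSRNOG00000009258, Cdkn1b is ENSRNOG00000007249, Cdkn1c is ENSRNOG00000059500 and Cdkn2c is ENSRNOG00000008956.

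Cyclins D1, D2 and D3 are the regulatory subunits that switch on the kinases CDK4 and CDK6, and their genes respond to growth factor and Wnt signals. The active kinases phosphorylate the retinoblastoma protein, which then releases E2F factors that drive the genes of DNA replication. Inhibitors of the INK4 family (Cdkn2c encodes p18) bind CDK4 and CDK6 themselves, while the Cip/Kip family (Cdkn1b encodes p27, Cdkn1c encodes p57) bind complexes of cyclin and kinase. Cells of the adult collecting duct divide rarely, and lithium is known to bring principal cells into the cell cycle.

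All rats were male Sprague-Dawley animals of 120 to 160 g with a 12:12-h light-dark cycle. Controls ate food without lithium, and treated rats ate food with lithium chloride at 40 mM per kg. Cortical collecting ducts (CCD) were dissected by hand after 12 h (3 control and 2 lithium libraries), 24 h (3 and 3), 36 h (3 and 3) and 72 h (17 and 19). Cortical thick ascending limbs (cTAL), the upstream segment that takes up salt without water, were dissected at 72 h only (12 control and 10 lithium libraries). The labels do not say which of the 75 libraries came from separate rats, so p-values measure only the spread between these libraries. As bulk samples they do not separate fewer cells of a type from less RNA per cell.

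Values are TPM, the level of a transcript per length and library total, which can be compared between genes, and each library had between 10888 and 12411 genes at 1 TPM or more. Differences between groups are on the scale of log2(TPM + 1), which understates the change of low genes, and were tested with limma. The threshold for a call was an adjusted p of 0.05, with adjustment over all genes tested. The segments matched their labels. All 8 principal cell markers and all 8 intercalated cell markers were in the table, and the principal cell sum had medians of 14696 TPM in control CCD and 124 TPM in control cTAL at 72 h. The 7 thick ascending limb markers summed to 1079 and 77237 TPM in the same groups. Libraries at 72 h fell into 4 control and 4 lithium sets, named C1 to C4 and L1 to L4, each of which shared the same high or low state of 5 genes (Pfdn6, Slc39a1, H3f3c, Mrps10 and Repin1) in both segments. Sets were formed within a treatment and time, and C3 and L1 had the same states, as did C4 and L4. Each of the 6 early groups held 1 set only, so time, treatment and set cannot be told apart there. The labels do not name these sets, and the 5 genes were picked after the values were seen. Results are therefore given over libraries and, where it ends a call, over set means.

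Promoters are shown for the member with the most separated levels (Cdk4), for the INK4 inhibitor that rose (Cdkn2c), for the cyclin with the highest level (Ccnd3) and for an inhibitor without a call under lithium (Cdkn1b). RefSeq promoters were found for 5 of the 9 symbols. Each line gives the 250 bases before the gene's start in the GRCr8 assembly, read 5′ to 3′ on the gene's strand, with matches to the searched motifs in capitals.

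Cdk4: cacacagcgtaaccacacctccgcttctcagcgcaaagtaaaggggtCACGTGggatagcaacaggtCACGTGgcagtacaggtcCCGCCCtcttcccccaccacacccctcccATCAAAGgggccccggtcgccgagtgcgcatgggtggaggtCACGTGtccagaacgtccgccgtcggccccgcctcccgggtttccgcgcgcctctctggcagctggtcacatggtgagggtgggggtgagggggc

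Cdkn2c: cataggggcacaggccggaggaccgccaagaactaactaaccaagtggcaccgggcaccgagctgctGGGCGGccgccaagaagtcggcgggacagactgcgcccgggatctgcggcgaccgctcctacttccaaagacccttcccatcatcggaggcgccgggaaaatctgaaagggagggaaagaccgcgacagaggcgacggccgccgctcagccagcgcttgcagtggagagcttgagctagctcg

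Ccnd3: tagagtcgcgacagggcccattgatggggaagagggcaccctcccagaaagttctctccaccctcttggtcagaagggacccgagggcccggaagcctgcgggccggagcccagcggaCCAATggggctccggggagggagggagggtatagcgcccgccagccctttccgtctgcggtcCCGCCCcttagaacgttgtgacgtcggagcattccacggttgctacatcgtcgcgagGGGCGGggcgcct

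Cdkn1b: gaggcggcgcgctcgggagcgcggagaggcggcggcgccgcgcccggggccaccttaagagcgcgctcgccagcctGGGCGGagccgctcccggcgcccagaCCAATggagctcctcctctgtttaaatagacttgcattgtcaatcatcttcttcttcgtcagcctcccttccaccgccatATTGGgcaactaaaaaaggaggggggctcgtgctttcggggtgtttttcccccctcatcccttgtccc

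These windows lie at chr7:64771203-64771452 (plus strand) for Cdk4, chr5:129644892-129645141 (minus strand) for Cdkn2c, chr9:20897876-20898125 (minus strand) for Ccnd3 and chr4:169491254-169491503 (plus strand) for Cdkn1b. The assembly differs from the build of the expression values, so the coordinates describe the sequence only. Both strands were searched for 8 motifs, none of which contains another. The E-box was searched as CACGTG, and the GC box, bound by Sp1-like factors, as GGGCGG. Motifs of E2F factors were searched as TTTCCCGC and as TTTGGCGC. The motif of AP-1 was read as TGAGTCA, and that of the Wnt-responsive TCF/LEF factors as CTTTGAT. The CHR of late cell cycle genes was read as TTTGAA, and the CCAAT box by its name. The Cdk4 window held 3 E-boxes, which began 203, 183 and 95 bases before the start, where 5.59% of all 33469 promoters of that length held at least 1. It also held 1 reverse GC box and 1 reverse TCF/LEF match, present in 30.5% and 3.15% of all promoters. Cdkn2c held 1 GC box alone. Ccnd3 held 2 GC boxes and 1 CCAAT, and Cdkn1b held 1 GC box and 2 CCAAT, a motif found in 34.0% of all promoters. None of the 4 windows held an E2F (0.813% and 0.412% of all promoters for its 2 forms), CHR (16.2%) or AP-1 match (4.05%). A match is a description of the letters, and its absence says only that the letters are not in this window. The 4 windows were 64.0 to 67.2% G and C, against a median of 51.2% over all promoters.

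The order of the levels was shared by all groups at its top. Cdk4 had the highest mean TPM of the 8 genes in each of the 10 groups, followed by Ccnd3 and then Ccnd1. Cdk6 came next in every control group, in cTAL and in the 12 h lithium group, while Cdkn2c took that place in lithium CCD at 24, 36 and 72 h. Cdkn1b, Cdkn1c and Ccnd2 took the last places, except that Cdkn2c lay below Cdkn1b and Ccnd2 in lithium cTAL. Ccnd2 was listed at 0 in 9 of the 75 libraries and reached 1 TPM in 30, Cdkn1c reached 1 TPM in 48, and the other 6 genes did so in all 75.

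**Figure D1:**
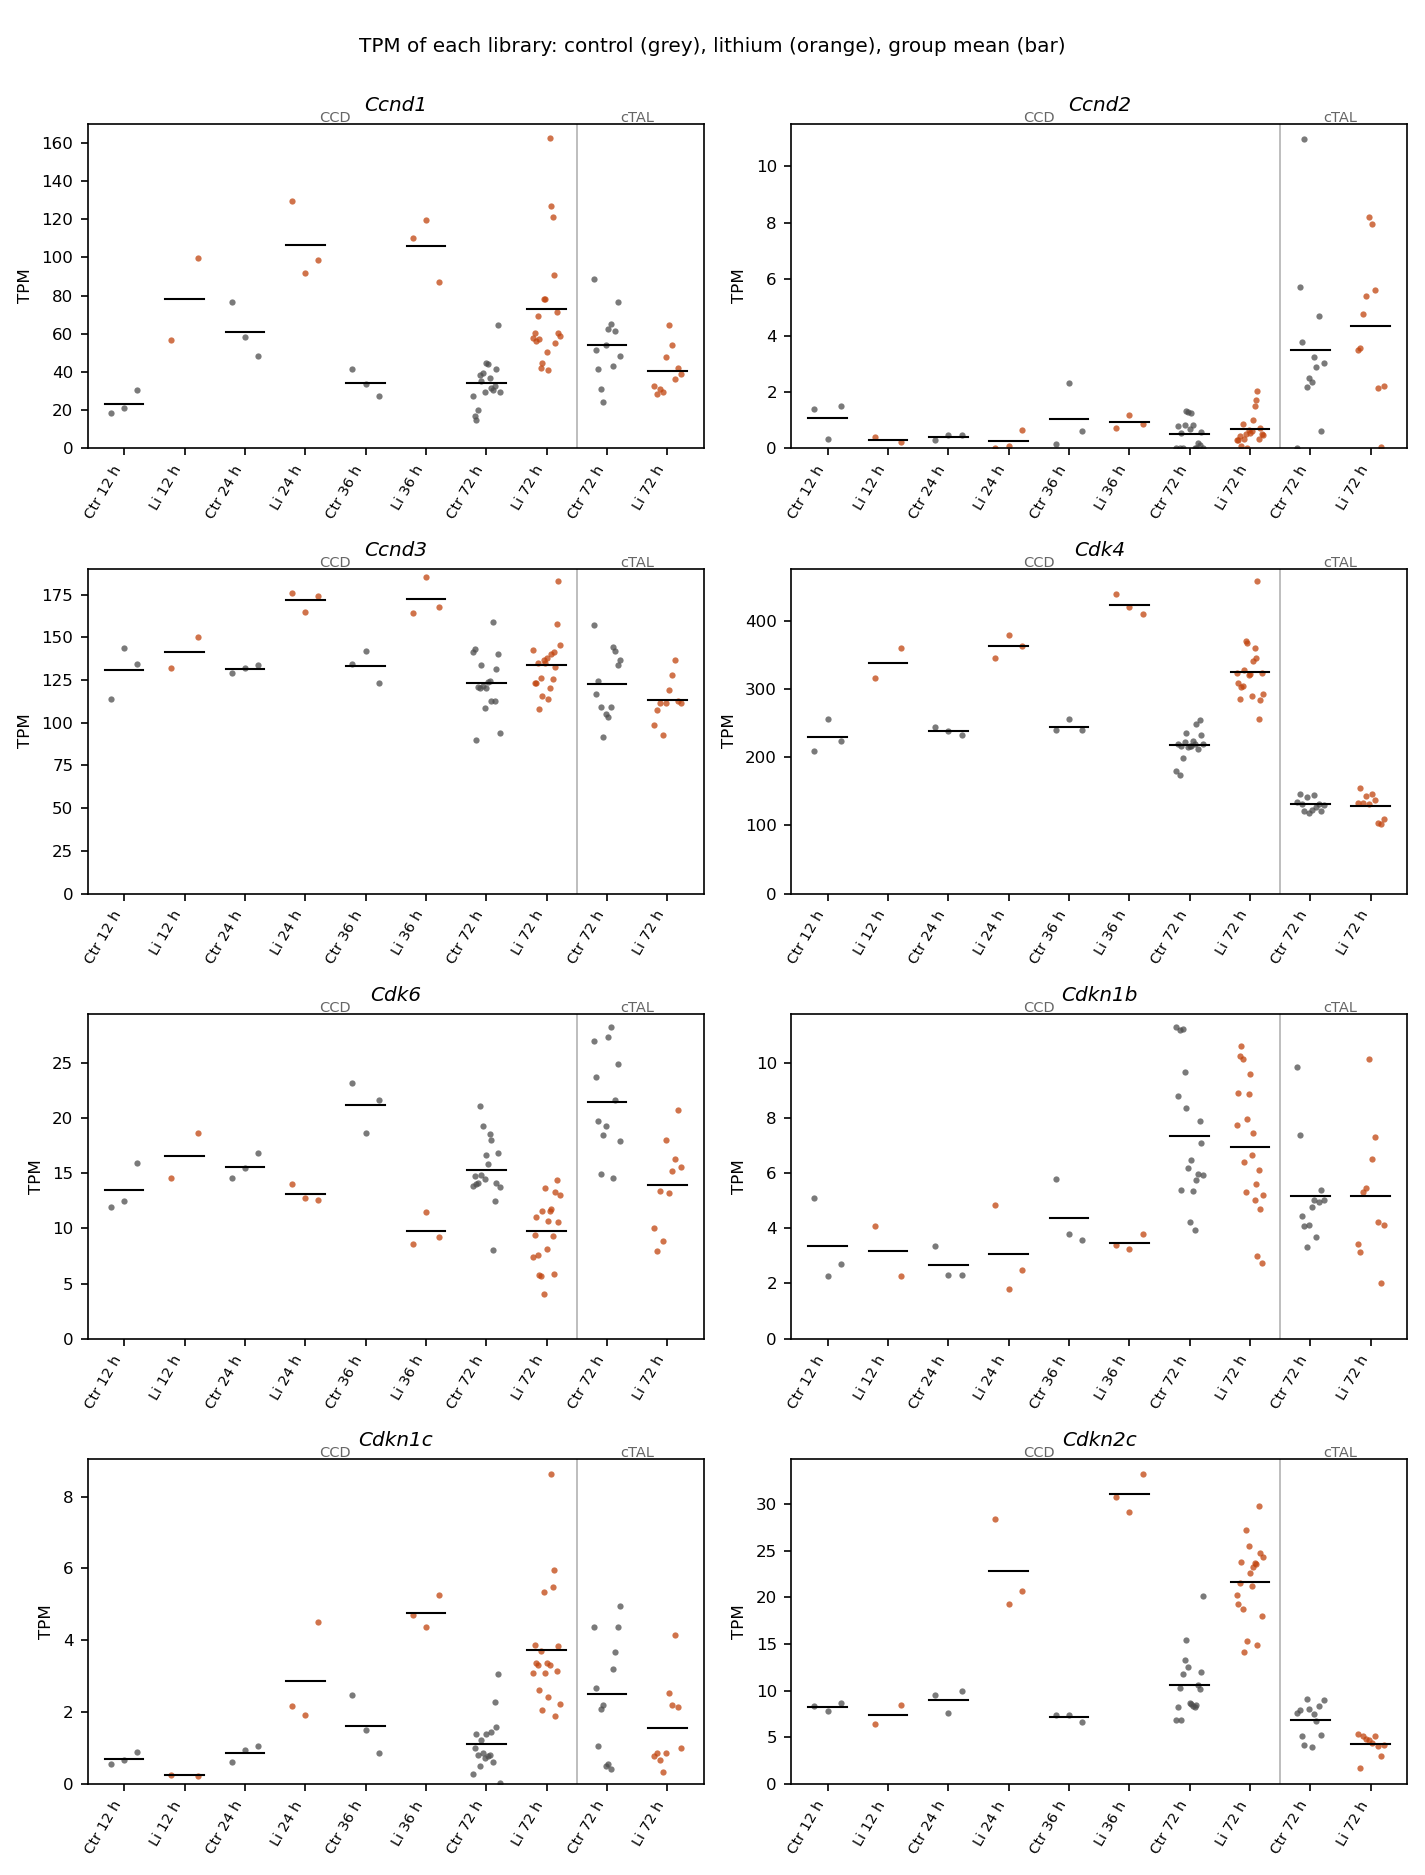
TPM of the 8 genes in every library, one panel per gene, with the 10 segment, treatment and time groups on the horizontal axis; points are libraries (grey control, orange lithium) and bars are group means. In CCD at 72 h, Cdk4 lies between 174.32 and 254.75 TPM in controls and between 255.79 and 458.69 TPM under lithium.

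In CCD after 72 h of lithium, Ccnd1, Cdk4, Cdkn1c and Cdkn2c rose and Cdk6 fell, so that a cyclin, a kinase and inhibitors of both families went up together. Ccnd3 and Cdkn1b had no call. These 5 calls are of 7 members tested, where 37.3% of all 11644 genes were called (22% higher and 15.2% lower). The split of calls over all genes, 2564 higher and 1774 lower, was 2424 and 2779 under quantile normalization, and the 5 member calls held. Over set means 4 of the 5 calls held, all but that of Cdk6, where 8.73% of genes were called. Ccnd2 did not pass the filter on low values in this comparison, and Cdkn1c passed it through the lithium group.

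Ccnd1, the cyclin most closely tied to growth signals, ranged from 14.79 to 64.68 TPM in the 17 CCD controls with a median of 32.52. In the 19 lithium libraries it ranged from 41.07 to 162.73 TPM with a median of 60.24. The groups overlapped, and 8 of the 19 lithium libraries lay above every control. The log2 difference was 1.05 (SE 0.16, limma adjusted p = 1.77e-06), a ratio of means of 2.14. The 4 lithium set means were 57.12, 58.47, 125.4 and 61.39 TPM and the 4 control set means 19.84, 35.66, 39.34 and 39.8 TPM. L3 and C1 stood apart from their neighbours, while the set means of the 2 groups did not overlap, as was so upward for 14.3% of all genes. The log2 difference was 0.82 without L3 and 0.83 without C1.

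Ccnd3, the D cyclin with the highest level, ranged from 89.61 to 158.82 TPM (median 121.27) in controls and from 108.24 to 183.1 TPM (median 134.7) under lithium. The ranges overlapped, with 1 lithium library above every control. All 4 lithium set means lay above all 4 control set means, as for 14.3% of all genes, without a call over set means (limma adjusted p = 0.597). The log2 difference of 0.12 had a 95% interval of -0.01 to 0.25 (limma adjusted p = 0.135). Ccnd2, the remaining D cyclin, was low in both groups, with medians of 0.53 TPM in controls and 0.52 TPM under lithium, and 6 controls and 1 lithium library were listed at 0. The sum of the 3 D cyclins averaged 158 TPM in controls and 207 TPM under lithium. Ccnd1 made up 21.3% ± 5.39 (SD, n = 17) of that sum in controls and 34.0% ± 8.77 (SD, n = 19) under lithium.

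Cdk4 encodes the kinase partner with the highest level in these tubules. It ranged from 174.32 to 254.75 TPM (median 218.74) in controls and from 255.79 to 458.69 TPM (median 322.06) under lithium. All 19 lithium libraries lay above all 17 controls, although the gap between the nearest libraries was narrow. The log2 difference was 0.57 (SE 0.06, limma adjusted p = 4.46e-11), a ratio of means of 1.49. Set means were 197.4, 218.2, 219.3 and 233.6 TPM in controls and 308.9, 333.8, 376.3 and 288.8 TPM under lithium. Complete separation of set means upward was found in 14.3% of all genes and downward in 5.98%. The share of genes with all libraries separated was not counted at 72 h, and it can be no larger than that of set means.

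Cdk6, the other kinase that D cyclins activate, moved the opposite way. It ranged from 8.04 to 21.1 TPM (median 14.71) in controls and from 4.09 to 14.42 TPM (median 10.58) under lithium. The groups overlapped, and 6 of the 19 lithium libraries lay below every control. The log2 difference was -0.65 (SE 0.13, limma adjusted p = 8.31e-05), a ratio of means of 0.634. Over set means the adjusted p was 0.0691 in a joint fit of all groups and 0.0329 in a fit of these groups alone. L4 at 12.84 TPM lay close to C4 at 13.05 TPM, and on the log2 scale L4 was the higher (3.783 against 3.777). On that scale 3 of the 4 lithium set means lay below all control set means. Cdk6 made up 6.62% of the sum of both kinases in controls and 2.98% under lithium.

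Among the inhibitors, Cdkn2c had the highest level. It ranged from 6.83 to 20.11 TPM (median 10.22) in controls and from 14.16 to 29.85 TPM (median 22.65) under lithium. The ranges overlapped, with 13 of 19 lithium libraries above every control. The log2 difference was 0.99 (SE 0.11, limma adjusted p = 1.53e-09), a ratio of means of 2.04. The 4 lithium set means, from 19.64 to 24.26 TPM, varied less than the control set means, from 8.062 to 13.25 TPM.

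Cdkn1c, which encodes p57, was near the limit of detection in controls, at 0.02 to 3.06 TPM with a median of 0.87. It ranged from 1.88 to 8.62 TPM with a median of 3.32 under lithium. Of the 19 lithium libraries, 14 exceeded every control. The log2 difference was 1.18 (SE 0.15, limma adjusted p = 3.97e-08), and L3 again had the highest set mean at 5.84 TPM. Cdkn1c passed the filter of this fit through the lithium group, where it is high. It reached 1 TPM in 7 of 17 controls and 19 of 19 lithium libraries. Cdkn1b, which encodes p27 and is mostly known to be controlled through protein turnover, had medians of 6.46 and 6.64 TPM. It varied between sets of both groups, from 4.99 TPM in C3 to 9.162 TPM in C1 and from 4.69 TPM in L4 to 9.008 TPM in L1. Its log2 difference of -0.08 had a 95% interval of -0.38 to 0.22 (limma adjusted p = 0.713).

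Markers of the CCD's own cells moved with these results. The sum of the principal cell markers had a median of 14696 TPM (10854 to 18142) in controls and 10431 TPM (9239 to 13253) under lithium. The intercalated cell sum had medians of 10569 TPM (8222 to 11607) and 7341 TPM (6424 to 8540). The 12 immune markers summed to medians of 180 TPM (21.9 to 568) and 262 TPM (142 to 1089), and the 9 endothelial markers in the table to 57.1 TPM (23.9 to 225) and 29 TPM (14 to 89.2). No marker of these lists was at 0 in all libraries of either group. Their part in the result was not tested.

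**Figure D2:**
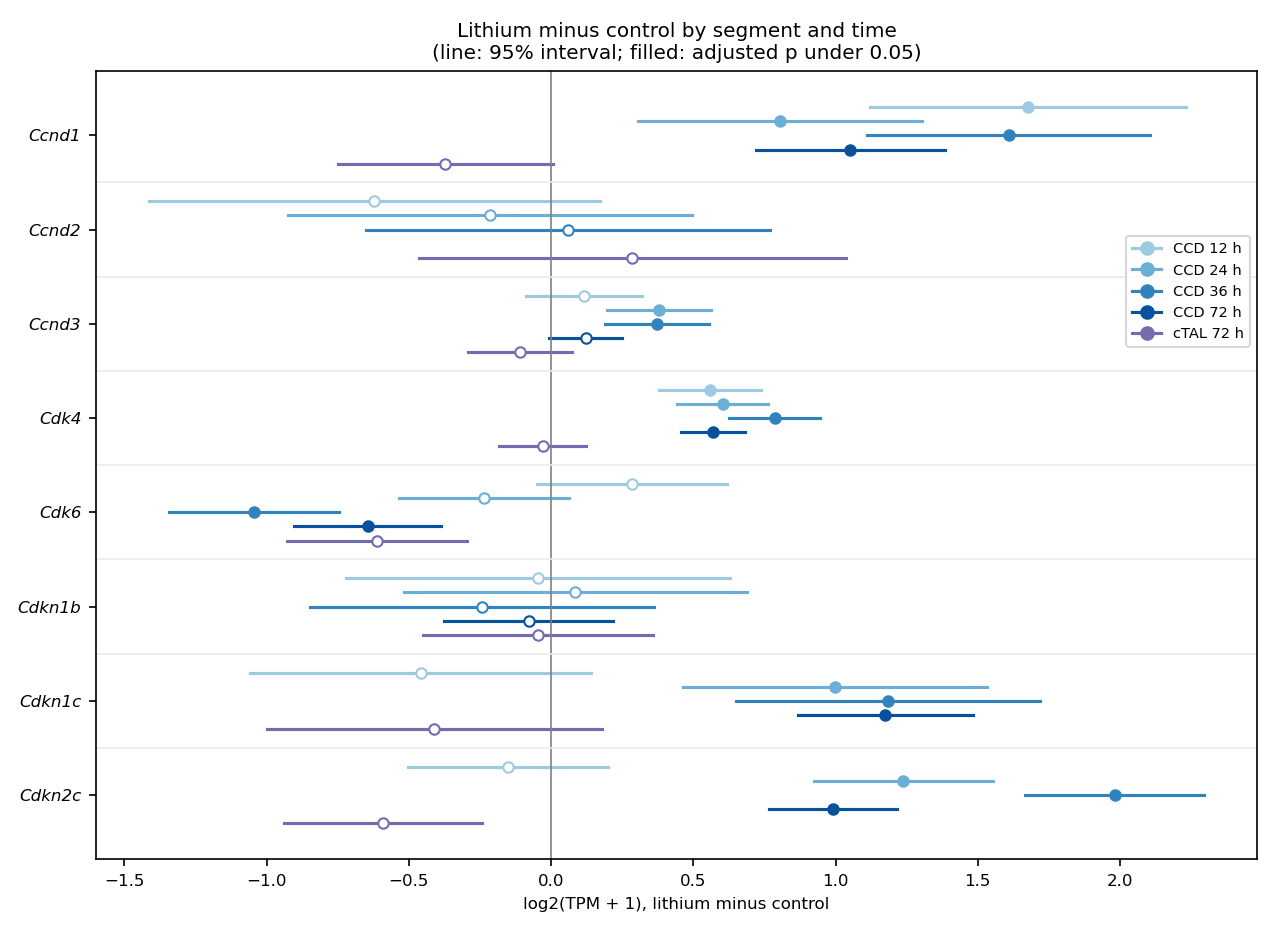
Difference of lithium minus control on the log2(TPM + 1) scale for each gene, by segment and time, with 95% intervals; filled points had an adjusted p under 0.05. Cdk4 lies between 0.56 and 0.79 in CCD at all times and at -0.03 in cTAL.

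**Figure D3:**
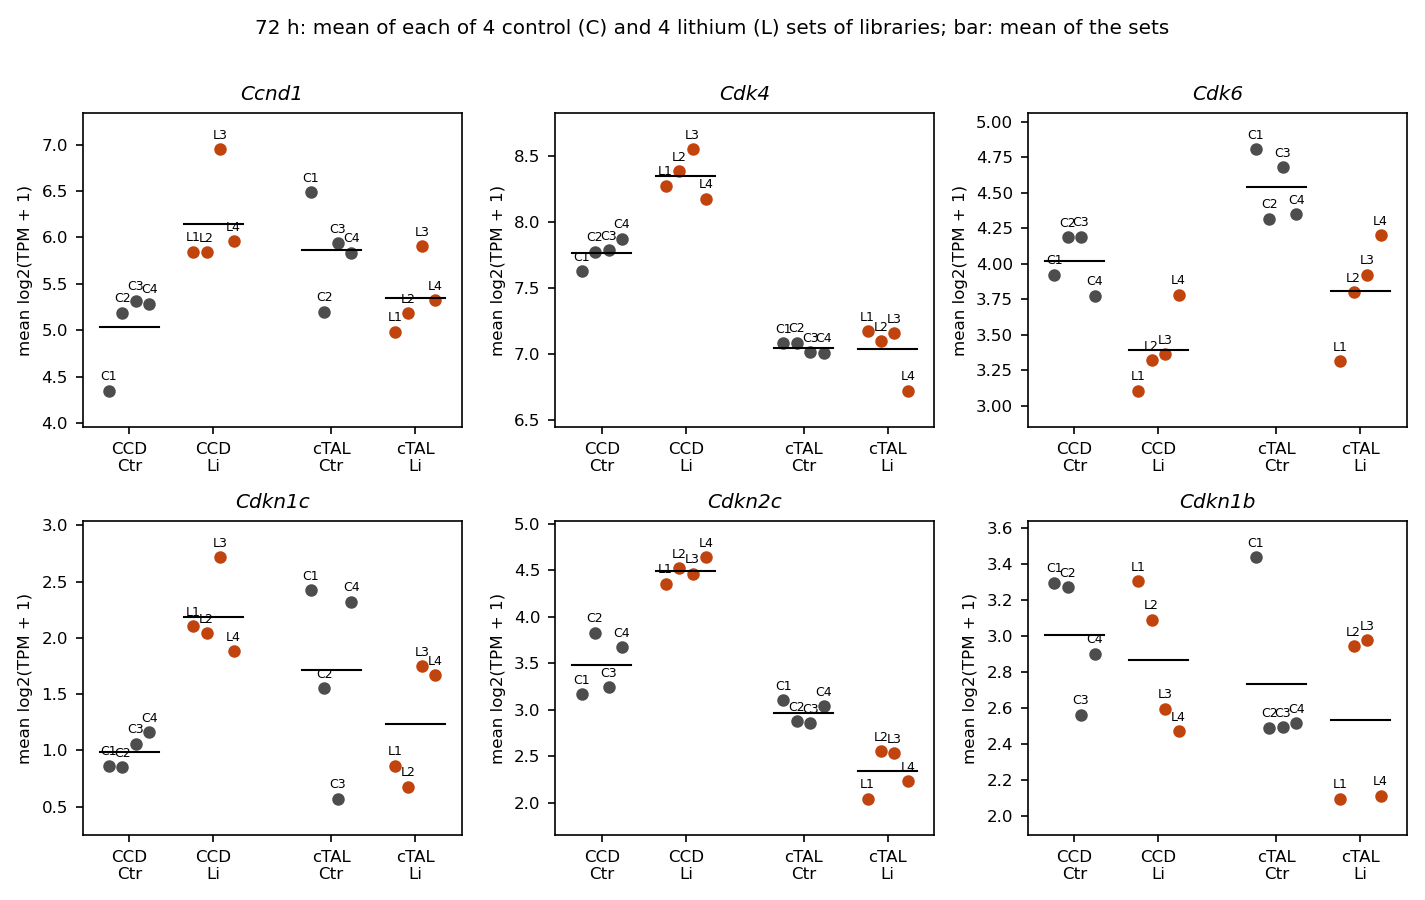
Mean log2(TPM + 1) of each set of libraries at 72 h in CCD and cTAL for 6 members, control sets C1 to C4 in grey and lithium sets L1 to L4 in orange; bars are means of the sets. In CCD the 4 lithium set means of Cdk4 (288.8 to 376.3 TPM) lie above the 4 control set means (197.4 to 233.6 TPM).

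At 12 h Ccnd1 and Cdk4 rose in CCD, and the inhibitors had no call. The 2 calls are of 8 members tested, where 10.4% of 12998 genes were called (7.1% higher). The split over all genes was 923 higher and 429 lower, and 754 and 727 under quantile normalization. Ccnd1 was at 18.28, 21.23 and 30.69 TPM in controls and at 56.85 and 99.54 TPM under lithium. Both lithium libraries lay above all 3 controls, with a log2 difference of 1.68 (SE 0.26, limma adjusted p = 0.000548). Cdk4 was at 208.72, 256.2 and 224.08 TPM in controls and at 316.63 and 359.49 TPM under lithium, again with no overlap. Its log2 difference was 0.56 (SE 0.08, limma adjusted p = 0.000404). Such separation upward was found for 22.4% of all genes at this time. Of the marker sums, 3 did not overlap between the groups at 12 h: principal cell markers summed to 18041 to 19967 TPM in controls and 13708 to 15962 TPM under lithium, thick ascending limb markers to 1688 to 2044 and 642 to 1106 TPM, and immune markers to 180 to 360 and 73.2 to 174 TPM. Their part in the results at this time was not tested.

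Cdkn2c was at 8.32, 7.85 and 8.64 TPM in 12 h controls and at 6.37 and 8.44 TPM under lithium. Cdkn1c was at 0.55, 0.67 and 0.89 TPM and at 0.25 and 0.22 TPM, all under 1 TPM. The 95% intervals of their log2 differences, -0.50 to 0.20 for Cdkn2c and -1.06 to 0.14 for Cdkn1c, hold 0. Cdk6 (0.28, limma adjusted p = 0.295), Ccnd3 (0.11, 0.523), Ccnd2 (-0.62, 0.342) and Cdkn1b (-0.05, 0.958) had no call either.

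At 24 h the INK4 inhibitor Cdkn2c, the Cip/Kip inhibitor Cdkn1c, the cyclins Ccnd1 and Ccnd3 and the kinase Cdk4 rose. These are 5 of 8 members, where 23.6% of all genes were called (18.3% higher). Cdkn2c was at 9.48, 7.59 and 9.99 TPM in controls and at 28.45, 19.31 and 20.69 TPM under lithium. The groups did not overlap, as was so upward for 32.2% of all genes, and the log2 difference was 1.24 (SE 0.15, limma adjusted p = 1.46e-05). Cdkn1c was at 0.61, 0.95 and 1.04 TPM in controls and at 2.17, 1.92 and 4.51 TPM under lithium, with a log2 difference of 1.00 (limma adjusted p = 0.00873).

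Ccnd3 was at 129.14, 132.22 and 133.58 TPM in 24 h controls and at 176.25, 164.71 and 173.96 TPM under lithium, a rise of 0.38 on the log2 scale (limma adjusted p = 0.00431). Cdk4 was at 243.95, 237.87 and 232.83 TPM and at 344.99, 379.93 and 363.11 TPM (0.60, limma adjusted p = 2.14e-05). Ccnd1 was at 76.46, 58.21 and 48.46 TPM in controls, with a mean above those of the controls of the other times, and at 129.55, 91.69 and 98.77 TPM under lithium (0.80, limma adjusted p = 0.0206). The lithium libraries of these 3 genes all lay above their controls. Cdk6, at 14.58, 15.44 and 16.82 TPM and at 14.01, 12.72 and 12.56 TPM, had no call (-0.24, limma adjusted p = 0.252), but was called lower under median-of-ratios scaling (0.0264) and quantile normalization (0.00661). The call of Ccnd1 was lost without control library 2 or 3 or lithium library 1 (adjusted p of 0.0592, 0.0961 and 0.0952) and stood at the threshold without the filter on low values (0.05, not a call), and that of Cdkn1c without lithium library 3 (0.0506). Ccnd2 stayed between 0 and 0.65 TPM in these 6 libraries. The proximal tubule markers summed to 770 to 2179 TPM in 24 h controls and 204 to 288 TPM under lithium, and the intercalated cell markers to 10357 to 11606 and 8431 to 8938 TPM. Neither sum overlapped between the groups, and their part in these results was not tested.

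The median of all genes was 0.13 at 24 h and also at 36 h and went to -0.01 and 0.00 under median-of-ratios scaling, which moved the split of calls from 2385 higher and 689 lower to 1582 and 1435 at 24 h, and from 3084 and 1105 to 2148 and 2004 at 36 h.

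At 36 h Cdk4, Cdk6 and Cdkn2c had their largest differences of the 4 times. Ccnd1, Ccnd3, Cdk4, Cdkn1c and Cdkn2c rose and Cdk6 fell, 6 of 8 members where 32.2% of all genes were called (23.7% higher and 8.5% lower). Cdkn2c was at 7.41, 7.4 and 6.59 TPM in controls and at 30.81, 29.21 and 33.29 TPM under lithium. That is a ratio of means of 4.36 and a log2 difference of 1.98 (SE 0.15, limma adjusted p = 4.16e-08). Cdk6 was at 23.22, 18.68 and 21.66 TPM in controls and at 8.59, 11.47 and 9.26 TPM under lithium. Every lithium library was lower than every control, as for 14% of all genes, and Cdk6 fell by 1.05 on the log2 scale (limma adjusted p = 2.77e-05).

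Cdk4 was at 240.14, 255.3 and 239.28 TPM in 36 h controls and at 439.07, 420.45 and 409.68 TPM under lithium, its highest group (0.79, limma adjusted p = 6.51e-07). Ccnd1 was at 41.61, 33.77 and 27.26 TPM and at 110.34, 119.6 and 87.32 TPM (1.61, limma adjusted p = 6.44e-05). Ccnd3 was at 134.49, 142.06 and 123.32 TPM and at 164.27, 185.45 and 168.04 TPM (0.37, limma adjusted p = 0.00356). All 3 separated completely upward, as did 32.9% of all genes. Cdkn1c was at 2.48, 1.51 and 0.86 TPM and at 4.69, 4.36 and 5.26 TPM (1.18, limma adjusted p = 0.00182). Cdkn1b, at 5.77, 3.81 and 3.56 TPM and at 3.38, 3.26 and 3.8 TPM, had no call (limma adjusted p = 0.55). The principal cell sum had medians of 19903 TPM in controls and 9135 TPM under lithium at this time. The intercalated cell sum had medians of 9312 and 7806 TPM, the thick ascending limb sum 1687 and 766 TPM, the endothelial sum 239 and 101 TPM and the fibroblast and smooth muscle sum 18.5 and 14.3 TPM, and none of these 5 sums overlapped between the groups. Over the 53 CCD libraries of all times, which share sets, Cdk6 correlated with the principal and intercalated cell sums at r = 0.65 and 0.67. For the members that rose, r was -0.37 and -0.49 for Ccnd1, 0.05 and -0.17 for Ccnd3 and -0.52 and -0.72 for Cdk4. It was -0.62 and -0.72 for Cdkn1c and -0.7 and -0.69 for Cdkn2c. Over the 22 cTAL libraries Cdk6 gave 0.23 and -0.4. The part of these markers in the results was not tested.

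When each early set was reduced to 1 mean, no member was called at 12 or 24 h, and only Cdkn2c was called at 36 h (limma adjusted p = 0.00352), with the spread borrowed from the 72 h sets. Calls over all genes then came to 0.0308%, 0.954% and 3.35% at 12, 24 and 36 h. A joint fit of the libraries of all 10 groups called Cdk4 and Cdkn2c alone at 24 h, where 991 of 12998 genes were called. At 36 h, where it called 1628 of 12998 genes, it did not call Ccnd3 (limma adjusted p = 0.105) or Cdkn1c (0.0532).

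The lithium effect itself differed between times for Cdkn2c and Cdkn1c. Moderated F tests over the 8 CCD groups gave an F of 11.35 for Cdkn2c (limma adjusted p = 0.000446) and 5.31 for Cdkn1c (limma adjusted p = 0.0386), 2 of 8 members where 8.43% of 14105 genes were called. Log2 differences of Cdkn2c were -0.15, 1.24, 1.98 and 0.99 at 12, 24, 36 and 72 h. Those of Cdkn1c were -0.46, 1.00, 1.18 and 1.18. The difference between times was not called for Ccnd1 (F = 1.42, limma adjusted p = 0.599) or Cdk4 (F = 0.91, 0.771), whose effects were 1.68, 0.80, 1.61 and 1.05 and 0.56, 0.60, 0.79 and 0.57. It was not called for Cdk6 either (F = 4.07, limma adjusted p = 0.101), but was under median-of-ratios scaling (0.0355) and quantile normalization (0.00767), with effects of 0.28, -0.24, -1.05 and -0.65. Over set means no member was called (Cdkn2c limma adjusted p = 0.405), where 0.227% of genes were, and with the set as a random effect only Cdkn2c was (0.0143), where 3.11% of genes were. Leaving out any one of the 5 libraries of 12 h ended the call of Cdkn1c, with an adjusted p of up to 0.205.

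Controls also differed between times for Cdkn1b (F = 9.39, limma adjusted p = 0.0015) and Ccnd1 (F = 4.55, limma adjusted p = 0.0496), 2 of 8 members where 13.8% of all genes were called. Control means of Cdkn1b were 3.36, 2.667, 4.38 and 7.331 TPM at 12, 24, 36 and 72 h. Those of Ccnd1 were 23.4, 61.04, 34.21 and 34.02 TPM, so the 24 h controls stood highest. Neither was called over set means, where 0.149% of genes were, and leaving out 1 early control library left Ccnd1 without a call for 7 of the 9 libraries.

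Proportions among the genes were taken in each library and averaged by group. Cdk6 made up 5.57, 6.16, 7.98 and 6.62% of both kinases in CCD controls at 12, 24, 36 and 72 h, and 4.66, 3.5, 2.26 and 2.98% under lithium. Cdkn2c transcripts amounted to 3.43, 3.55, 2.68 and 4.56% of the kinase sum in controls and to 2.08, 6.12, 7.2 and 6.62% under lithium. The sum of the 3 inhibitors averaged 12.3 and 10.8 TPM at 12 h, 12.6 and 28.7 TPM at 24 h, 13.1 and 39.4 TPM at 36 h and 19.1 and 32.4 TPM at 72 h, controls first. Ccnd1 made up 15.0, 31.4, 20.2 and 21.3% of the D cyclins in controls and 34.9, 38.1, 37.7 and 34.0% under lithium.

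**Figure D4:**
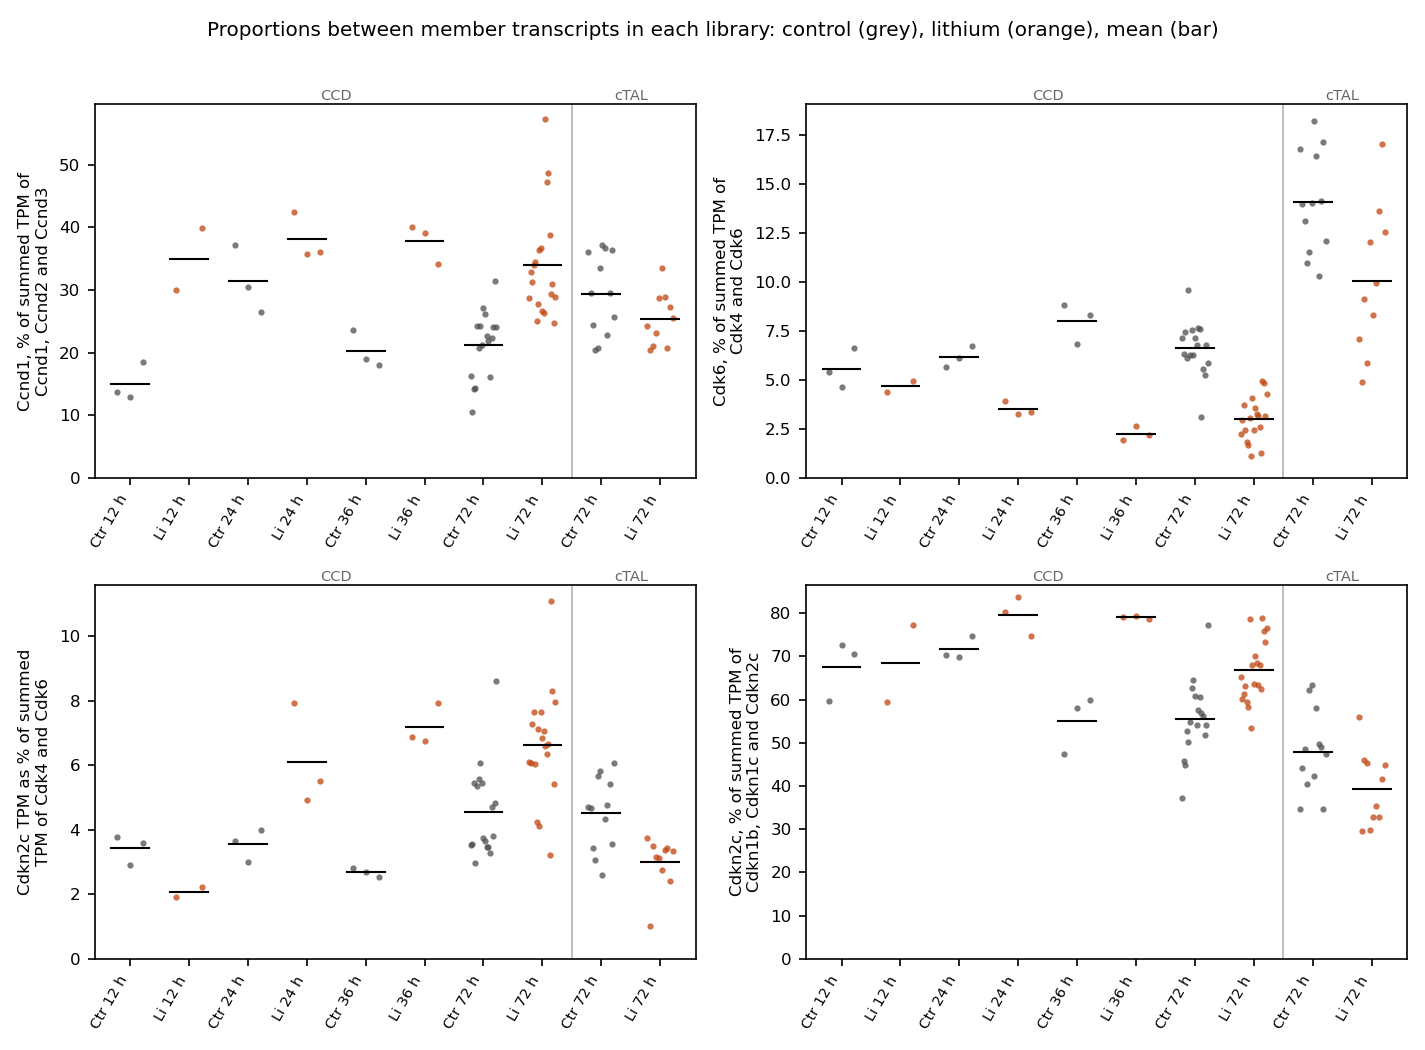
Proportions in percent per library by group: Ccnd1 of the D cyclin sum, Cdk6 of the sum of Cdk4 and Cdk6, Cdkn2c relative to that kinase sum, and Cdkn2c of the sum of the 3 inhibitors; points are libraries and bars are group means. Mean Cdk6 shares in CCD are 7.98% in controls and 2.26% under lithium at 36 h.

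In cTAL at 72 h no member was called of 8 tested, where 0.701% of 11702 genes were called. At an unadjusted p under 0.05, 2 members were lower, Cdk6 and Cdkn2c. The share of all genes under that looser limit was not counted, and 0.701% is not its measure. Cdk6 ranged from 14.6 to 28.26 TPM (median 20.69) in the 12 controls and from 7.94 to 20.76 TPM (median 14.28) in the 10 lithium libraries. Its log2 difference was -0.61 (SE 0.15, unadjusted limma p = 0.000535, adjusted p = 0.0647). Cdkn2c ranged from 3.91 to 9.09 TPM (median 7.525) and from 1.67 to 5.33 TPM (median 4.525), with a log2 difference of -0.59 (SE 0.17, unadjusted limma p = 0.00171, adjusted p = 0.115). For both genes all 4 lithium set means lay below all 4 control set means, as for 1.74% of all genes. A joint fit of all 10 groups, which shares the spread with CCD, called both lower (limma adjusted p of 0.00848 for Cdk6 and 0.00611 for Cdkn2c). That fit called 524 of 11702 genes, in place of 82. Cdk6 was also called without set L4 (0.0372), where 69 of 11942 genes were.

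Ccnd1 ranged from 24.47 to 88.84 TPM (median 52.71) in cTAL controls and from 28.55 to 64.41 TPM (median 37.66) under lithium, with overlap throughout (-0.37, limma adjusted p = 0.406). The single control library of set C1 held the highest value. Cdk4 had medians of 130.7 and 132.7 TPM, and the 95% interval of its log2 difference was -0.18 to 0.12. Cdkn1c had medians of 2.425 and 0.925 TPM (-0.41, limma adjusted p = 0.564). Ccnd2 had medians of 2.955 and 4.16 TPM (0.29, limma adjusted p = 0.777), Ccnd3 120.6 and 111.6 TPM, and Cdkn1b 4.86 and 4.77 TPM.

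The lithium effects of Ccnd1, Cdk4, Cdkn1c and Cdkn2c differed between the segments, while that of Cdk6 did not pass the test. The difference of the effects, CCD minus cTAL, was called for these 4 of 8 members, where 15.3% of 13083 genes were called (11.8% higher). It was 1.58 on the log2 scale for Cdkn2c (SE 0.19, limma adjusted p = 1.65e-09) and 1.59 for Cdkn1c (SE 0.30, limma adjusted p = 4.93e-05). It was 1.42 for Ccnd1 (SE 0.26, limma adjusted p = 3.09e-05) and 0.60 for Cdk4 (SE 0.09, limma adjusted p = 5.43e-07). With set means and the set as a block over both segments, the adjusted p was 0.00452 for Cdkn2c, 0.019 for Cdk4, 0.0286 for Ccnd1 and 0.06 for Cdkn1c, where 4.17% of genes were called. The split of calls over all genes was 1550 higher and 450 lower, and 1109 and 857 under median-of-ratios scaling.

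For Cdk6 the difference of the effects was -0.03 with a 95% interval of -0.44 to 0.38 (limma adjusted p = 0.947), and its lithium estimates were -0.65 in CCD and -0.61 in cTAL. Within sets, Cdkn2c was 0.06 to 0.95 higher in CCD than in cTAL on the log2 scale in the 4 control sets and 1.93 to 2.41 higher in the 4 lithium sets. Cdk4 was 0.55 to 0.86 higher in CCD in control sets and 1.1 to 1.46 higher in lithium sets. Ccnd1 went from -2.14 to -0.01 in control sets to 0.63 to 1.04 in lithium sets, so the segment with more Ccnd1 was cTAL in controls and CCD under lithium.

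Without lithium the 2 segments differed for 7 of 8 members, where 67.2% of all genes were called. Cdk4 (0.73, limma adjusted p = 6.27e-16), Cdkn2c (0.55, 0.000273) and Cdkn1b (0.42, 0.0234) were higher in CCD. Ccnd2 (-1.41, 9.13e-07), Ccnd1 (-0.65, 0.00137), Cdkn1c (-0.64, 0.00563) and Cdk6 (-0.46, 0.004) were higher in cTAL. Ccnd2 passed the filter of this fit through cTAL, where it is high: it reached 1 TPM in 10 of 12 control and 9 of 10 lithium libraries there, against 3 of 17 and 4 of 19 in CCD at 72 h. The median of all genes was 0.25 here and 0.01 under median-of-ratios scaling, which moved the split of calls from 6133 higher and 2662 lower to 3779 and 3965. Relative to that shift Cdkn1b lost its call (adjusted p = 0.37 under median-of-ratios scaling and 0.226 under quantile normalization), and Ccnd3, at 0.01 without a call, became lower in CCD at -0.27 and -0.23. Over set means 4 members were called, where 46.8% of genes were, and Cdkn1c, Cdkn1b and Ccnd2 were not (adjusted p of 0.101, 0.46 and 0.0753). Sets C1 to C4 span both segments, and with the set as a block over its means Ccnd2 was called as well (0.0279), 5 of 8 members where 52.4% of genes were. The call of Ccnd1 was lost without set C1 (-0.37, 0.0632), that of Cdkn1c without C4 (-0.37, 0.149) and that of Cdkn1b without C2 (0.212) or C4 (0.0772). The immune markers summed to a median of 2833 TPM and the endothelial markers to 518 TPM in control cTAL, against 180 and 57.1 TPM in control CCD, and the fibroblast and smooth muscle sum had medians of 11.7 TPM in cTAL and 16.5 TPM in CCD. Over the 22 cTAL libraries Ccnd2 correlated with these 3 sums at r = 0.47, 0.41 and 0.57. Their part in the level of Ccnd2 was not tested.

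Partners further along the pathway were read from lists of genes, and each count is to be read against the 10.4, 23.6, 32.2 and 37.3% of all genes called in CCD at 12, 24, 36 and 72 h, and the 0.0308, 0.954, 3.35 and 8.73% called over set means. Of the cyclins and kinases of the G1/S step, 4 of 9 rose at 12 h, 7 at 24 h, 8 at 36 h and 6 at 72 h in CCD, and none fell. Over set means the calls came to 0, 0, 5 and 5. The list's median log2 difference was 0.44, 1.08, 1.26 and 0.61, against 0.06, 0.13, 0.13 and 0.00 for all genes tested. Ccne1 and Ccne2, the E cyclins that act after the D cyclins, rose at all 4 times, Ccne1 by 0.76, 2.31, 2.88 and 1.58 and Ccne2 by 1.17, 2.55, 2.58 and 1.37 from 12 to 72 h. Mean Ccne1 was 5.905 ± 3.13 TPM (SD, n = 17) in controls and 17.51 ± 3.76 TPM (SD, n = 19) under lithium at 72 h. Cdk2, the kinase of the E cyclins, rose by 0.45, 1.08, 1.26 and 0.61 at the 4 times. For these 3 genes the calls at 36 and 72 h held over set means. In cTAL, where 0.701% of all genes were called, 3 of 9 fell: Ccna2 (-1.97, limma adjusted p = 0.00693), Cdk1 (-1.47, 0.027) and Ccne2 (-1.06, 0.0359). None of these 3 was called over set means, where only 1 of 11702 genes was.

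Of the retinoblastoma and E2F list, 12 of 13 symbols were in the table, and E2f1 was not analysed here. None was called at 12 h, 6 of 12 rose at 24 h, 8 rose and 1 fell at 36 h, and 5 rose and 2 fell of 11 tested at 72 h. Over set means 2 were higher at 24 h, 4 at 36 h, and 2 were higher and 1 lower at 72 h. The list's median was 0.06, 0.39, 0.68 and 0.18. The repressors E2f7 and E2f8, themselves known E2F targets, rose at the last 3 times, E2f7 by 2.04, 2.94 and 0.89 and E2f8 by 2.07, 3.07 and 1.12, with 36 h means of 0.2567 and 8.707 TPM for E2f7. Over set means E2f7 lost its calls at 24 and 72 h (limma adjusted p of 0.332 and 0.125), and E2f8 at 24 h (0.0993). Tfdp1, the dimer partner of E2F factors, rose by 1.22, 1.54 and 0.80 at 24, 36 and 72 h, and held all 3 calls over set means. At 72 h E2f7 had a control mean of 0.7488 TPM, so it passed the filter on low values there only with lithium libraries. None of the list was called in cTAL, of 8 tested.

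Among the other inhibitors of these kinases, Cdkn1a, which encodes p21 and is a p53 target, rose by 1.47 at 24 h, 2.95 at 36 h and 2.67 at 72 h. Over set means the call at 72 h held (limma adjusted p = 0.00955), and those at 24 h (1) and 36 h (0.326) did not. Its mean at 72 h was 4.936 ± 2.08 TPM (SD, n = 17) in controls and 35.15 ± 7.05 TPM (SD, n = 19) under lithium, which placed it above Cdkn2c among the inhibitors. Cdkn2b, the INK4 inhibitor p15, rose by 1.07 at 72 h from a mean of 0.2512 to 1.603 TPM. With a control mean under 1 TPM, Cdkn2b passed the filter on low values there only with lithium libraries, where it is high. Of the 3 genes on this list, 2 passed the filter in CCD.

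Genes that set the turnover of D cyclin and p27 proteins numbered 11, of which 2 rose at 12 h, 3 at 24 h, 4 at 36 h, and 5 rose and 2 fell at 72 h. Over set means 0, 0, 3 and 2 were called, all higher. Skp2, the ubiquitin ligase subunit that marks p27 for destruction, rose by 1.45, 2.11 and 0.83 at 24, 36 and 72 h. Its cofactor Cks1b rose by 0.91, 1.55, 2.42 and 1.41 at the 4 times, and Cks2 by 1.57, 3.28 and 1.82 at the last 3. Over set means Skp2 was called at 36 h only (limma adjusted p = 0.034), and not at 24 h (0.35) or 72 h (0.0519). Cks1b and Cks2 were called over set means at 36 and 72 h only. The list's median was 0.26 at 72 h. None of the 11 was called in cTAL.

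Factors known to act upstream of these genes, inducers and repressors in 1 list, numbered 11. Of 9 tested, 1 rose and 1 fell at 12 h and again at 24 h, 2 rose and 2 fell at 36 h, and 3 rose and 3 fell at 72 h. Over set means none was called at 12 or 24 h, 1 was higher at 36 h (Foxm1), and 1 was higher (Foxm1) and 1 lower (Jun) at 72 h. Foxm1 rose by 2.03, 3.12 and 1.28 at 24, 36 and 72 h, while Jun, a subunit of AP-1, fell at 24 h, by 0.58 at 36 h and by 1.48 at 72 h. Myc, from a control mean of 0.2567 TPM, rose by 0.92 at 12 h and also rose at 72 h (0.635). At 72 h its control mean was 0.6812 TPM, so it passed the filter on low values only with lithium libraries. Hes1, a Notch target that is known to repress Cdkn1b, fell by 0.69, 0.64 and 0.80 at 12, 36 and 72 h.

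The readout of DNA replication and division rose in 8 of 11 genes at 12 h and in all 11 at 24, 36 and 72 h, with list medians of 1.17, 2.29, 2.87 and 1.53. Over set means 0, 7, 10 and 11 were called, all higher. In cTAL, where 0.701% of all genes were called, 2 of 10 fell, Mki67 (-0.98, limma adjusted p = 0.0214) and Top2a (-1.29, 0.0277). Neither was called over set means, where only 1 of 11702 genes was. The lithium effect was larger in CCD than in cTAL, by the test of the difference, for all 11 of this list and for 5 of 9 of the G1/S list, and it was higher for 5 and lower for 1 of 12 of the E2F list, where 15.3% of all genes were called. Over set means these came to 10, 4 and 2, all higher, where 476 of 13083 genes were called. These lists were chosen with earlier results of these data known.

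**Figure D5:**
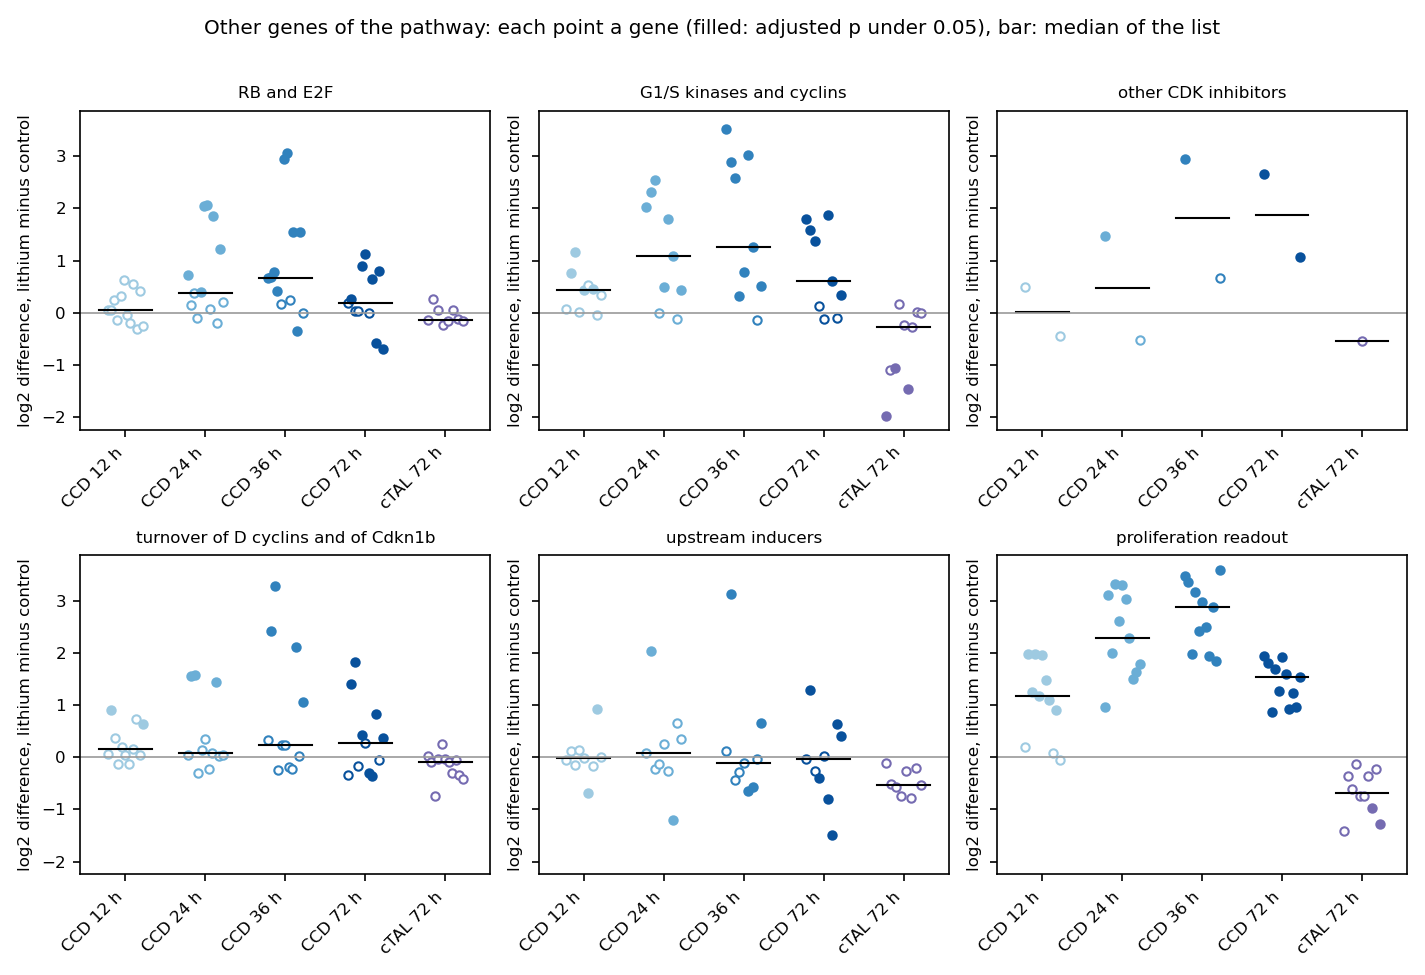
Log2 difference of lithium minus control for each tested gene of 6 pathway lists, by segment and time; filled points had an adjusted p under 0.05 and bars are list medians. The replication and division list has 11 of 11 higher in CCD at 24, 36 and 72 h and 2 of 10 lower in cTAL.

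Genes most like each member were ranked by Pearson's r of log2(TPM + 1) over the 53 CCD libraries, among 8945 genes with a CCD mean of at least 5 TPM. These r values describe libraries that share sets and treatment. For Cdkn2c the highest were Kif2c (0.94), Tacc3 (0.94) and Kif22 (0.93), a kinesin, a spindle protein and another kinesin. For Cdk4 they were Tuba1b (0.94), Tuba1a (0.93) and Snrpb (0.92), 2 tubulins and a splicing protein, and for Ccnd1 they were Tpm3 (0.89), Krt18 (0.88) and Adm2 (0.87). Over the 22 cTAL libraries the same pairs gave, in this order, 0.5, 0.57 and 0.72 for Cdkn2c. For Cdk4 they gave 0.47, 0.53 and 0.18, and for Ccnd1 0.39, -0.13 and 0.14. In CCD the highest for Cdk6 were Fras1 (0.82), Ulk1 (0.80) and Klhl24 (0.79). For Cdkn1c they were Tap1 (0.84), Cxcl16 (0.83) and Birc3 (0.82), and for Ccnd3 Eif4h (0.84), Klf16 (0.83) and Ncaph2 (0.81). The gene of lowest r was Auh for both Cdk4 (-0.87) and Cdkn1c (-0.82), Atp6v0d1 for Cdkn2c (-0.84), Fahd2a for Ccnd1 (-0.79), Taf10 for Cdk6 (-0.81) and Cox16 for Ccnd3 (-0.75). For Cdkn1b the 3 highest were Anp32a (0.81) and a pair of unnamed loci, Rn60_1_2212.2 (0.87) and Rn60_1_2212.4 (0.80), and the lowest was Fzd7 (-0.77).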

How the data were processed

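RNA was measured in 53 CCD and 22 cTAL libraries. Per the labels' protocols, SMARTer V4 chemistry and 15 PCR cycles gave the cDNA, and Nextera XT the libraries. STAR 2.5.2b, RSEM 1.2.31 and the build Rnor_6.0 come from the submitters' processing notes. The deposited values are TPM, which the authors scaled by length and library total. Depth is therefore unknown, and precision rests on the spread between libraries. Column sums were 999999 to 1000001. SMARTer cDNA keeps no strand, so genes that overlap on opposite strands cannot be told apart.

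Groups came from the labels. The test was limma (version 3.58.1, R 4.3.3). It was applied to log2(TPM + 1), so with a pseudocount of 1, with a mean-variance trend, two-sided tests and Benjamini-Hochberg adjustment over all genes with at least 1 TPM in as many libraries as the smallest group of the fit. Each 72 h comparison was fitted on its 2 groups, and the early comparisons on the 6 early groups jointly. The segment comparisons used the 4 groups at 72 h, and the comparisons over time the 8 CCD groups. The scripts were tested on simulated data. Alternatives were a pseudocount of 0.1, no filter, no trend, median-of-ratios and quantile scaling, a joint fit of all groups, set means, the set as a random effect, a replicate block, and leaving out each set or early library. Set means with the set as a block, set means in a fit of 2 groups, and leaving out early libraries from the tests over time were chosen after seeing the data.

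The members and the pathway lists were chosen with earlier results of these data known. All members are named, and of each pathway list up to 3 called genes of smallest p per comparison. For likeness, the 3 genes of highest and the 1 of lowest r are named. Genes outside this rule are named as single examples chosen after their values were seen. Summaries and figures used Python 3.11.15, numpy 2.4.6, pandas 2.3.3 and matplotlib 3.10.9.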

Additional observations from a re-analysis of the deposited data

Results flagged for a closer look

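The lithium effect at 72 h differed between CCD and cTAL for 4 members by the test of the difference itself (limma interaction term). CCD minus cTAL was 1.42 on the log2 scale for Ccnd1, 0.6 for Cdk4, 1.59 for Cdkn1c and 1.58 for Cdkn2c. The call of Cdkn1c was lost over set means (limma adjusted p = 0.0864).

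The lithium effect in CCD differed between 12, 24, 36 and 72 h for Cdkn1c (moderated F of 5.31) and Cdkn2c (moderated F of 11.35). Each early group held 1 set of libraries, so time and set cannot be told apart in these tests.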

How the results depend on the processing

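Counts of members called stayed within 1.5 times under 127 alternatives and moved further under 30. Of 1238 alternatives for single members, 43 changed the sign, each for a member without a call in the reported fit, and Ccnd3 between control segments was then called under both scalings. The limits are that TPM keeps no depth, that the libraries fall into sets the labels do not name, and that each early group is 1 set. The cause of the changes listed here was not tested, except that set means and left-out libraries leave fewer samples.

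Set means in a joint fit gave 0 members called at 12 h, 0 at 24 h, 1 at 36 h, 4 between control segments, and 0 in both tests over time. The joint fit of all 10 groups gave 2 in cTAL, 2 at 24 h, and 1 in each test over time. The lithium effect over time had 1 without the filter and 1 with the set as a random effect. The controls over time had 1 with a pseudocount of 0.1, without the filter, without the trend or with the set as a random effect. Leaving out 1 set or library gave 0 to 1 in cTAL, 4 to 5 at 24 h, 5 to 7 between control segments, 1 to 2 for the lithium effect over time and 1 to 2 for the controls over time.

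Replicate numbers did not pair the libraries of CCD at 72 h: over the 17 pairs the correlation of deviations ran from -0.167 to 0.272 and 1 library correlated best with its own number. In cTAL it ran from -0.08 to 0.441, and 1 of 10 libraries correlated best with its own number. At 12, 24 and 36 h 1 of 2, 2 of 3 and 1 of 3 did, too few pairs to decide. With a replicate block the controls over time had 4 members called, and the lithium effect over time was called for Cdk6 (adjusted p = 0.011). Over all genes the block gave 743 calls in place of 1352 at 12 h, 0 in place of 82 in cTAL, 1318 in place of 2000 for the difference between segments, and 2626 and 4395 in place of 1189 and 1941 over time. In the difference between segments the replicate block gave 0.115 for Cdkn1b, and between control segments -0.006 for Ccnd3.

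Calls over all genes also moved by over 1.5 times. Set means gave 1017 in place of 4338 for CCD at 72 h (1759 in a fit of these groups alone), 1, 4, 124 and 435 for cTAL, 12, 24 and 36 h, 476 for the difference between segments (546 with the set as a block), and 32 and 21 over time. The set as a random effect gave 2619 for CCD at 72 h, 0 for cTAL, and 439 and 490 over time. The joint fit of all groups gave 524 in cTAL and 148, 991 and 1628 at 12, 24 and 36 h in place of 1352, 3074 and 4189, and 1278 for controls over time. Without the filter cTAL had 31, and leaving out 1 set gave 1 to 223 there.

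The signs that turned were those of small differences. Cdkn1b in CCD at 72 h ran from -0.255 to 0.042 with 1 set left out, above 0 without C1, C2, L3 or L4. In cTAL, Cdk4 was at 0.061 under median-of-ratios scaling and ran from -0.070 to 0.095 over sets left out. Cdkn1b there was at 0.028 and 0.079 under median-of-ratios and quantile scaling and ran from -0.224 to 0.133. At 12 h Cdkn1b ran from -0.366 to 0.274 and Cdkn2c from -0.330 to 0.027 with 1 library left out. At 24 h Cdkn1b was at -0.035 and -0.134 under the scalings and ran from -0.215 to 0.316. At 36 h Ccnd2 was at -0.008 and -0.087 under the scalings and ran from -0.266 to 0.484. For the difference between segments, Ccnd2 was at 0.346 with a pseudocount of 0.1 and ran from -0.539 to 0.208. Cdk6 was at 0.104 over set means with or without the block and 0.014 with the set as a random effect, and ran from -0.089 to 0.094. Cdkn1b was at 0.059 over set means with or without the block and ran from -0.317 to 0.168. Between control segments Ccnd3 was at -0.273 and -0.232 under the scalings and -0.050 over set means with or without the block, and ran from -0.056 to 0.092. The set as a random effect could not be fitted for 12, 24 and 36 h.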

Other observations

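Within groups, the members varied together in part. Over the deviations of the 53 CCD libraries from their group means, Pearson's r was 0.49 for Cdk6 with Cdkn2c, 0.43 for Ccnd1 with Cdk4, 0.43 for Ccnd1 with Cdkn1c and -0.45 for Cdk4 with Cdkn1b. So Cdk6 and Cdkn2c, which moved in opposite directions under lithium, varied in the same direction among libraries of a group. Over the 22 cTAL libraries the same pairs gave 0.1, -0.05, 0.25 and 0.39, while Ccnd3 with Cdkn1c gave 0.75 there and 0.18 in CCD. These are descriptions over libraries that share sets.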
